A study of Mus musculus with 11 samples.

Results

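Surface targets of small cell lung cancer (SCLC) were followed through irradiation of a mouse SCLC cell line. They were 9 genes, Sez6, Sez6l, Cd276, Sstr1, Sstr2, Ceacam1 and Ncam1, which encode cell-surface proteins, and B4galnt1 and St8sia1, which encode enzymes that build surface gangliosides. The genes were taken by symbol from the 35056 genes of the files, and all 9 were among the 14106 genes with enough reads to be tested. RNA was sequenced in bulk from KP1, a cell line from an SCLC that arose in a mouse with mutant Rb and p53 and that grows in suspension. The irradiated group held 3 libraries (replicates 1, 2 and 3) of cells given 5 Gy and collected 24 h later. The control group held 2 libraries of untreated cells (replicates 2 and 3), of the same line and with no other treatment named. KP1 is 1 cell line, so the values describe that line alone, and no source says that the replicates were separate cultures, so that the p-values measure the spread between these libraries, which may be technical. The CD45-positive tumor samples of the series were not analysed here.

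Surface proteins that are scarce on healthy tissue and plentiful on a tumor can be reached by antibodies, antibody-drug conjugates, radioligands or engineered T cells. SEZ6 and its relative SEZ6L are neuronal membrane proteins that the protease BACE1 cuts from the surface. CD276 (B7-H3) is an immune checkpoint relative, SSTR2 and SSTR1 are receptors for the peptide somatostatin, CEACAM1 and NCAM1 (CD56) are adhesion molecules of the immunoglobulin superfamily, and NCAM1 is a standard marker of neuroendocrine tumors. GD2 and related gangliosides are lipids and have no gene of their own. ST8SIA1 makes GD3 from GM3, and B4GALNT1 makes GD2 from GD3 and GM2 from GM3, so both enzymes are needed for GD2.

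The libraries held 21185956 to 31036317 estimated reads. The cells carried the markers of their labelled type. All 8 neuroendocrine SCLC markers were detected, with a summed level of 2253 to 2606 TPM in control and 2485 to 2720 TPM in irradiated libraries, (TPM is scaled to a fixed total in each library and corrected for transcript length). In edgeR 4 of the 8 were called higher and 0 lower, where 12.7% of all genes tested were called higher, and 1 was called higher with an offset for transcript length and 0 without control replicate 2. The 6 leukocyte markers summed to 4.55 and 6.89 TPM in control and 1.18 to 1.62 TPM in irradiated libraries, and Tyrobp had no read in any library. The 3 endothelial markers summed to 1.55 and 1.28 TPM in control replicates 2 and 3 and 0.314 to 0.524 TPM in irradiated libraries. The 4 fibroblast markers summed to 13.6 and 0.176 TPM in control replicates 2 and 3 and 0.148 to 0.311 TPM in irradiated libraries. Col1a1 made up 13.5 TPM of the sum in control replicate 2, from 33 reads. The leukocyte and endothelial sums were lower in every irradiated library than in both controls, and their part in the results was not tested. The mean length of the transcripts that the reads fell on was 5465 and 4731 bases in control and 3626 to 3999 bases in irradiated libraries, so that the groups did not overlap. Across the genes tested, the median log2 fold change of irradiated against control cells went from 0.77 in the decile of genes with the shortest transcripts to −0.78 in the decile with the longest. The values of a fit with a transcript length offset, which removes each library's trend of read number with length, are therefore given for the 9 genes and for the named genes of the lists.

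The 9 genes fell into a set with higher levels and a scarce set. In control cells Ncam1 had the highest level at 254 ± 142 TPM (mean ± SD, n = 2), above all but 539 of the genes tested. Sez6 followed at 66.2 ± 9.72 TPM, then B4galnt1 at 40.5 ± 5.81 TPM, Cd276 at 26.6 ± 0.112 TPM and Sstr2 at 18.9 ± 2.92 TPM. Cd276 and Sstr2 were near the middle of the genes tested, at percentiles 54.3 and 45.7. Sez6l, Ceacam1, St8sia1 and Sstr1 lay between 3.23 and 0.361 TPM, in the lowest 20.3% of the genes tested. In control cells only Sez6l and Ceacam1 overlapped as neighbours in this order. In irradiated cells Ncam1 was again the highest, at 69.6 ± 20.0 TPM (n = 3). B4galnt1 came next at 40.7 ± 4.84 TPM, before Sez6 at 37.9 ± 1.44 TPM, with overlapping values, and Cd276 overlapped with Sstr2, Sez6l with Ceacam1, and Ceacam1 with St8sia1. Ncam1 made up 68.0% and 49.7% of the summed TPM of the 9 genes in control replicates 2 and 3, and 38.2%, 28.2% and 38.2% in irradiated replicates 1, 2 and 3.

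**Figure D1:**
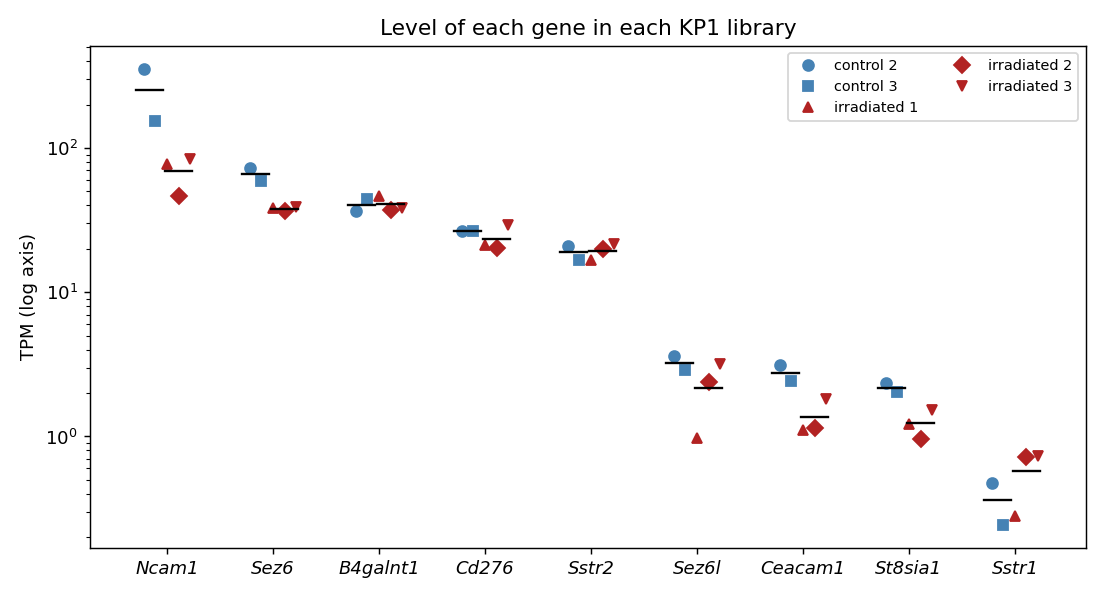
Level of each of the 9 genes in TPM (log axis) in each library, with circles and squares for the control replicates, triangles and diamonds for the irradiated replicates, and black lines at the group means. Ncam1, Sez6, Ceacam1 and St8sia1 stand higher in both control libraries than in any irradiated library, and the B4galnt1 and Sstr2 values of the groups intermingle.

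The comparison asked which of these genes differed in KP1 cells 24 h after irradiation. Ncam1 was the only member called, and it was lower in irradiated cells. Calls were made at an adjusted p under 0.05 in edgeR's quasi-likelihood test, with p-values adjusted (Benjamini-Hochberg) over every gene tested. By this rule 13% of all genes tested were called lower and 12.7% higher, and 1 of 9 members was lower and 0 were higher. At an unadjusted p under 0.05, 2 members were lower and 0 higher, beside 2838 lower and 2951 higher of the 14106 genes tested. No member also passed the study's limit of 1.5 on the log2 fold change, which 3.53% of all genes did in either direction. In CPM (counts scaled to library size with TMM, not corrected for length), every irradiated library lay below both controls for 4 members (Sez6, Ceacam1, Ncam1 and St8sia1) and above both for 2 (Cd276 and B4galnt1). Among all genes tested these shares were 29.3% below and 30.1% above. The median log2 fold change of the 9 genes was 0.12, and that of all genes tested was 0.02.

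**Figure D2:**
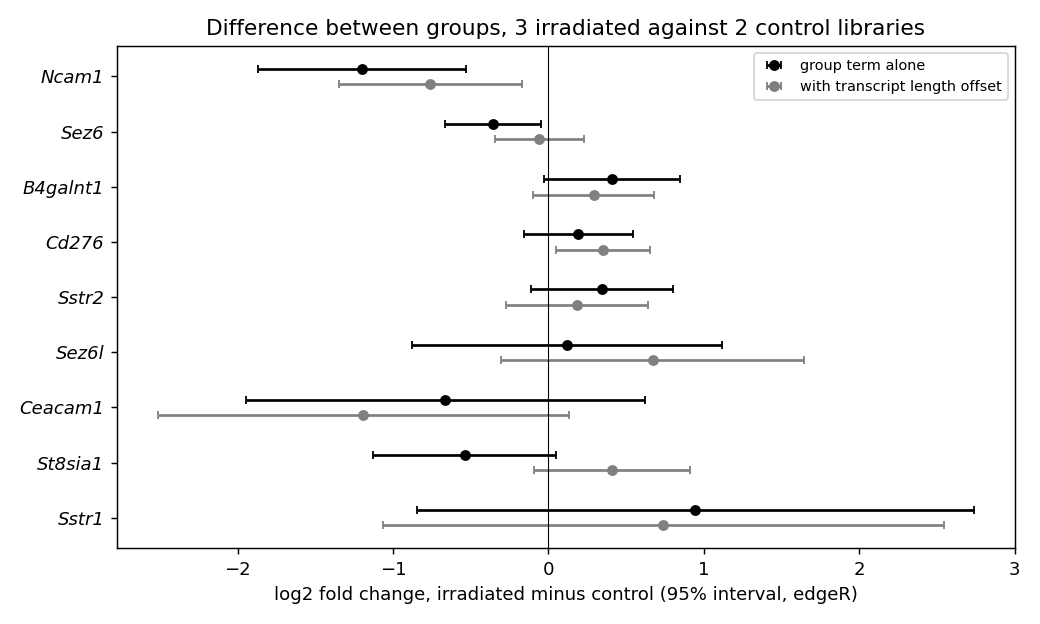
Log2 fold change of each gene, irradiated minus control, with its 95% interval from edgeR over 2 control and 3 irradiated libraries, from the fit with the group term alone (black) and with a transcript length offset (grey). The Ncam1 interval lies below 0 in both fits, and the St8sia1 estimate moves from −0.54 to 0.41.

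Ncam1 (ENSMUSG00000039542.16, chr9:49502136-49798925, minus strand of GRCm38) encodes an adhesion molecule that alternative splicing makes in several forms. The sequences that tell these forms apart are shown because the reads of the gene were not spread over them alike in the libraries. NCAM-180 has a long cytoplasmic part through an extra exon of 801 bases (chr9:49506853-49507653), which among the transcripts described only Ncam1-205 holds. NCAM-140 is spliced past it (Ncam1-204 and Ncam1-202), and Ncam1-201 ends earlier in an exon of its own, as the lipid-anchored NCAM-120 does. In the following lines from GENCODE M21, 5′ to 3′, capitals mark in Ncam1-205 the first 60 bases of the 801-base exon (chr9:49507594-49507653) and in Ncam1-201 the coding part of its last exon (chr9:49517509-49517582), each after 30 bases of the exon before. Ncam1-204 joins the same 30 bases as Ncam1-205 to its last exon.
Ncam1-205: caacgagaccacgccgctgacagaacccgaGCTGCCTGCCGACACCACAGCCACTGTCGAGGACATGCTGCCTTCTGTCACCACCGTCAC
Ncam1-204: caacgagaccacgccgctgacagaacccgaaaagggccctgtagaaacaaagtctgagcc
Ncam1-201: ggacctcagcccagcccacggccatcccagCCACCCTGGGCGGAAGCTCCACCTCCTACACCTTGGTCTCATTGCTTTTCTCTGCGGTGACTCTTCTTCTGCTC

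Ncam1-205 also holds an exon of 30 bases, known as VASE, in the stretch that codes for an immunoglobulin domain (chr9:49550540-49550569), shown in capitals with 15 bases of the exon on each side.
Ncam1 30-base exon: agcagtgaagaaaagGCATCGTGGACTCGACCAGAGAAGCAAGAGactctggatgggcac

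A further site of small exons lies between the fibronectin domains, where the muscle-specific domain can be spliced in. Ncam1-206 is an annotated fragment of 146 bases that holds 3 inner exons there (chr9:49535209-49541902), and Ncam1-205 holds the first of them, of 15 bases, and an exon of 3 bases (capitals from chr9:49531974-49541902). Ncam1-204 joins the outer exons directly.
Ncam1-206: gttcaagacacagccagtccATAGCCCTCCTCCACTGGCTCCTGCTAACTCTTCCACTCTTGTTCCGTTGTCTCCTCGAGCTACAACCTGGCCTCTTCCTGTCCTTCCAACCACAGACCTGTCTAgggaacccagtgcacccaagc
Ncam1-205: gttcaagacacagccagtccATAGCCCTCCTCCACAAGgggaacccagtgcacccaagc
Ncam1-204: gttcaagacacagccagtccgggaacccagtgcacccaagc

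Ncam1 fell in irradiated cells, by 1.20 on the log2 scale. It had 19806 and 9956 reads in control replicates 2 and 3, and 6612, 3623 and 7332 reads in irradiated replicates 1, 2 and 3. In TPM these were 354 and 153 in control and 78.0, 46.7 and 84.0 in irradiated cells. Every irradiated library lay below both controls, and the controls differed from each other by more than the irradiated libraries did. The level in CPM was 534 ± 226 in control and 232 ± 57.6 in irradiated cells, a 2.30-fold difference (log2 fold change −1.20, SE 0.29, 95% interval −1.87 to −0.53, adjusted p = 0.0227 from edgeR). The genes of the same decile in transcript length had a median log2 fold change of −0.40. That decile goes by the mean length of the gene's transcripts weighted by TPM, 4479 bases. The decile that holds the 6050 bases of Ncam1-204 had a median of −0.78. The call was lost with the transcript length offset (−0.76, adjusted p = 0.0958 from edgeR) and without control replicate 2 (−0.67, adjusted p = 0.158), irradiated replicate 1 (−1.30, adjusted p = 0.056) or irradiated replicate 2 (−1.01, adjusted p = 0.055), all from edgeR.

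Most Ncam1 reads went to the NCAM-140 transcript Ncam1-204, which took 63.5% and 67.5% of the gene's estimated reads in control and 75.1%, 77.2% and 72.1% in irradiated replicates 1, 2 and 3. Ncam1-205 took 20.0% and 17.3% in control and 12.0%, 10.0% and 13.8% in irradiated cells. Its annotation begins at chr9:49568549 on the minus strand, and that of Ncam1-204 at chr9:49798925. Reads of exons before that point therefore cannot be assigned to Ncam1-205, and its share is not a measure of NCAM-180. Neither transcript's shares overlapped between the groups, that of Ncam1-204 being higher and that of Ncam1-205 lower in irradiated cells. How often the shares of other transcripts do not overlap was not counted. For the CPM of all genes tested it was 30.1% with irradiated libraries above and 29.3% with them below. The reads estimated for Ncam1-205 were 3969 and 1720 in control and 791, 361 and 1011 in irradiated cells, and those for the shorter NCAM-140 transcript Ncam1-202 were 2956 and 1264 in control and 839, 406 and 977 in irradiated cells. Both were lower in every irradiated library. So was Ncam1-201, with 222 and 183 estimated reads in control and 4.12, 31.9 and 49.6 in irradiated cells.

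Tested transcript by transcript, Ncam1-205 had a log2 fold change of −1.61 (SE 0.44, adjusted p = 0.134 from edgeR), Ncam1-202 one of −1.13 (adjusted p = 0.212) and Ncam1-204 one of −0.77 (adjusted p = 0.233). For Ncam1-201 it was −2.46 (SE 0.96, adjusted p = 0.233 from edgeR). In that fit 0% of the 40440 transcripts tested were called in either direction, and 5047 were higher and 3360 lower at an unadjusted p under 0.05. DESeq2 called 4393 transcripts higher and 2294 lower, among them Ncam1-205 (−1.62, adjusted p = 0.00705 from DESeq2). The difference between the transcripts in their change was not tested. Ncam1-205 is the longest of them at 6564 bases, Ncam1-204 has 6050 bases and Ncam1-202 has 3088 bases, and since Ncam1-205 alone of those described carries the 801-base, 30-base and 3-base exons, its reads do not show which of these exons was present.

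**Figure D3:**
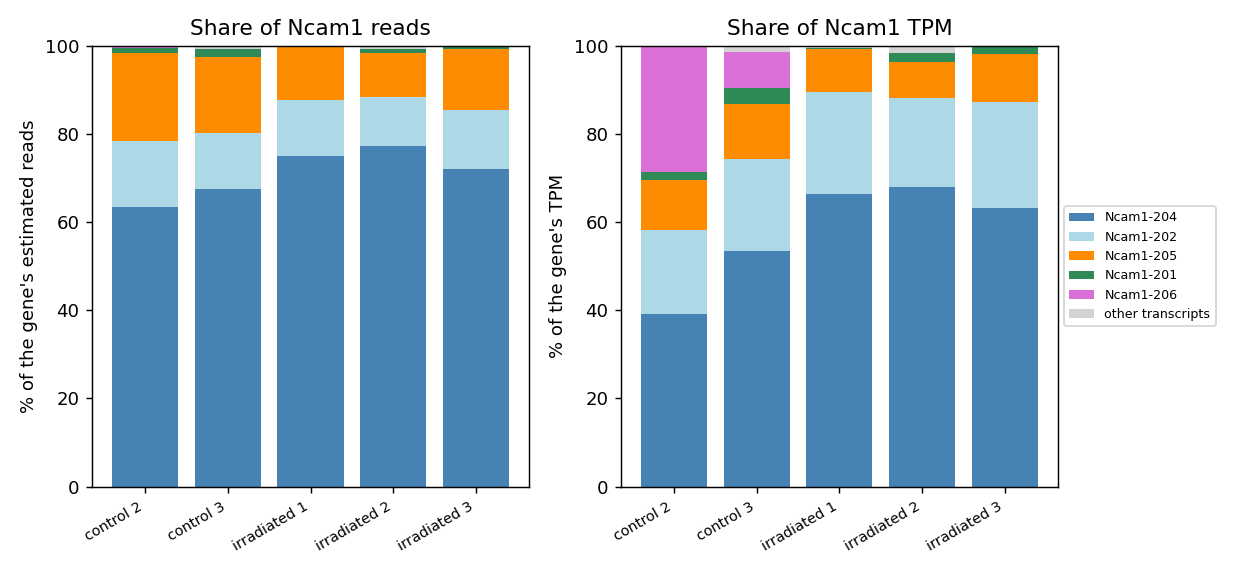
Share of each Ncam1 transcript in the gene's estimated reads (left, in %) and in its TPM (right, in %) in each library, as stacked bars that sum to 100. Ncam1-205 takes 17.3% to 20.0% of the reads in control and 10.0% to 13.8% in irradiated libraries, and Ncam1-206 takes 28.3% of the TPM but 0.227% of the reads in control replicate 2.

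The 146-base fragment Ncam1-206 moved the gene's TPM in the controls. It had 45 and 5 estimated reads in control replicates 2 and 3 and 0 in all irradiated libraries. Because TPM divides by length, these few reads made up 100 and 12.4 TPM, 28.3% and 8.12% of the gene's TPM. Without this fragment the Ncam1 level was 254 and 141 TPM in control and 78.0, 46.7 and 84.0 TPM in irradiated cells, and the groups still did not overlap. Gm11149, annotated on the opposite strand, shares 153 bases of identical sequence with Ncam1-202, Ncam1-204 and Ncam1-205, which is 2.3% to 5% of their length.

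The genes whose CPM followed Ncam1 most closely over the 5 libraries were Slc4a8, Selenot and Diaph1, each with Pearson's r = 0.999 on log2 CPM. Slc4a8 encodes a sodium-driven bicarbonate transporter and had a log2 fold change of −0.85 (adjusted p = 0.0285 from edgeR). Diaph1, a formin that nucleates actin, had −0.85 (adjusted p = 0.027). Selenot, a selenoprotein of the endoplasmic reticulum, had only −0.03 (adjusted p = 0.873), so that its likeness lay in the shape and not in the size of the differences. An r above 0.99 was found for 110 of 14105 genes, and all of these values share the same 5 libraries.

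Among 14 genes for NCAM1 relatives, partners and the polysialic acid that decorates NCAM1, 2 fell and 0 rose, Ncam1 itself included. Their median log2 fold change was −0.39, and of all genes tested 13% were called lower and 12.7% higher. Nfasc, a neuronal adhesion molecule of the L1 family, had 101 and 72.4 TPM in control and 25.1, 20.9 and 28.7 TPM in irradiated cells (log2 fold change −0.87, adjusted p = 0.0267 from edgeR). Its call was lost with the transcript length offset (−0.31, adjusted p = 0.265 from edgeR). It was also lost without control replicate 2 (−0.48, adjusted p = 0.198 from edgeR), irradiated replicate 1 (−0.78, adjusted p = 0.0845) or irradiated replicate 2 (−0.81, adjusted p = 0.0762). The polysialyltransferases did not pass the test. St8sia4 had 21.2 and 16.8 TPM in control and 5.41, 11.2 and 14.7 TPM in irradiated cells (−0.57, adjusted p = 0.241 from edgeR), and St8sia2 had 7.37 and 7.98 TPM in control and 7.16, 4.07 and 3.40 TPM in irradiated cells (−0.49, adjusted p = 0.315). Ncam2, the closest relative of Ncam1, was scarce, with 0.893 and 0.772 TPM in control and 0.386 to 0.462 TPM in irradiated cells (−0.60, adjusted p = 0.341 from edgeR). The transcript length offset left 0.01 for St8sia4, 0.02 for St8sia2 and 0.02 for Ncam2, so that no direction can be given for these genes.

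Sez6 (ENSMUSG00000000632.13, chr11:77930800-77979048, plus strand) was the second most abundant of the 9 genes in control cells, and it was lower in every irradiated library without passing the test. It had 3529 and 3122 reads in control replicates 2 and 3 and 2439, 2009 and 2545 reads in irradiated replicates 1, 2 and 3. In TPM these were 73.0 and 59.3 in control and 38.5, 36.3 and 39.0 in irradiated cells. The irradiated values were nearly alike and all lay below both controls. In CPM the level was 120 ± 4.52 in control and 93.9 ± 2.87 in irradiated cells (log2 fold change −0.36, SE 0.14, 95% interval −0.67 to −0.05, adjusted p = 0.0817 from edgeR). On the TPM scale, where the median of all genes lay at −0.30 for a pseudocount of 0.1, limma gave −0.79 (adjusted p = 0.0224), which passed the threshold. The transcript length offset left a difference of −0.06 (95% interval −0.34 to 0.23, adjusted p = 0.783 from edgeR).

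The Sez6 reads lay mainly on Sez6-202, with 75.6% to 86.5% of the gene's reads. Sez6-202 holds an exon of 39 bases (chr11:77977245-77977283) near the end of the coding sequence that Sez6-201 lacks. It is shown in capitals, with 15 bases of the exon on each side, because it is most of the coding difference between the transcripts that the reads were assigned to.
Sez6-202: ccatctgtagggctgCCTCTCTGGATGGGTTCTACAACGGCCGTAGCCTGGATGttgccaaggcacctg
Sez6-201: ccatctgtagggctgttgccaaggcacctg

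Sez6-202 had 49.1 and 42.0 TPM in control and 30.3, 26.5 and 31.1 TPM in irradiated cells (log2 fold change −0.13, adjusted p = 0.639 from edgeR on transcripts). Sez6-201 had 4.22 and 9.48 TPM in control and 6.01, 4.26 and 4.69 TPM in irradiated cells. The noncoding Sez6-204 took 12.5 TPM in control replicate 2, none in control replicate 3 and 0.947 to 2.77 TPM in irradiated cells, so that part of the control level in replicate 2 came from a transcript with no protein.

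Sez6l (ENSMUSG00000058153.15, chr5:112419151-112577185, minus strand) was scarce and varied widely among the irradiated libraries. It had 209 and 206 reads in control and 91, 207 and 314 reads in irradiated replicates 1, 2 and 3. Irradiated replicate 1 lay below both controls and irradiated replicate 3 above both, so that the groups overlapped. The estimate was a log2 fold change of 0.12 (SE 0.43, 95% interval −0.88 to 1.11, adjusted p = 0.864 from edgeR), which leaves room for a difference of either sign. Set with the transcript length offset it was 0.67 (95% interval −0.30 to 1.65, adjusted p = 0.319 from edgeR), and over the 21 alternatives it ran from −0.68 to 1.02 without a call. The reads were divided over 5 coding transcripts in shares that changed from library to library. Sez6l-206, for example, had 80.2 estimated reads in control replicate 2 and 0 in every other library.

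Sez6l2, the other member of the family, was about as abundant as Sez6, with 77.9 and 73.6 TPM in control and 52.1, 43.9 and 56.0 TPM in irradiated cells (log2 fold change −0.26, adjusted p = 0.231 from edgeR). Bace1, the protease that sheds these proteins, had 57.3 and 53.9 TPM in control and 39.0, 28.6 and 36.1 TPM in irradiated cells (−0.50, adjusted p = 0.0662 from edgeR and 0.0453 from DESeq2). The irradiated values of Sez6l2 and Bace1 all lay below both controls, also in CPM. Under the transcript length offset −0.06 was left for Sez6l2 (adjusted p = 0.801 from edgeR) and −0.10 for Bace1 (adjusted p = 0.706 from edgeR). Bace2 had at most 21 reads. Of the 5 genes for the SEZ6 family and its sheddases 0 passed the test, and the median log2 fold change was −0.36. At an unadjusted p under 0.05, 2 of them were lower, as were 2838 of the 14106 genes tested.

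Cd276 (ENSMUSG00000035914.11, chr9:58524298-58555437, minus strand) was found at a middle level among the 9 genes. It had 26.7 and 26.5 TPM in control replicates 2 and 3 and 21.2, 20.3 and 29.1 TPM in irradiated replicates 1, 2 and 3. On this scale the groups overlapped. In CPM, not corrected for length, the values were 39.4 and 43.5 in control and 45.0, 44.8 and 51.9 in irradiated cells, all 3 above the controls. The log2 fold change was 0.19 (SE 0.15, 95% interval −0.16 to 0.54, adjusted p = 0.379 from edgeR). It was 0.35 with the transcript length offset (95% interval 0.05 to 0.65, unadjusted p = 0.0283, adjusted p = 0.121 from edgeR). On the TPM scale, where the median of all genes lay at −0.30 for a pseudocount of 0.1, limma turned it to −0.19 (adjusted p = 0.548). The sign of the Cd276 estimate against 0 thus rests on the scale, and in each of these fits it lay above the median of all genes.

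The main Cd276 transcripts, Cd276-201 and Cd276-202, code for the same 316 amino acids and differ in their first exons, so their division does not touch the protein. Cd276-202 took 98.9% and 57.1% of the gene's reads in control and 78.7%, 66.6% and 66.1% in irradiated cells. Control replicate 2 had 0 reads assigned to Cd276-201 and control replicate 3 had 495.5. Cd276-202 shares 416 identical bases with Gm10657, annotated on the opposite strand, which is 11.5% of its length.

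The other B7 ligands were scarce beside Cd276. Cd274, which encodes PD-L1, had 2.33 and 1.33 TPM in control and 1.04, 0.970 and 1.06 TPM in irradiated cells (log2 fold change −0.56, SE 0.41, adjusted p = 0.34 from edgeR). Its irradiated values lay below both controls, at 49 to 61 reads, and the length offset left −0.30. Of 8 genes of the B7 family, 4 had enough reads to be tested, 0 passed, and the median log2 fold change was 0.22.

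Sstr2 (ENSMUSG00000047904.6, chr11:113619342-113626028, plus strand) had the highest level of the somatostatin receptor genes. It had 588 and 433 reads in control replicates 2 and 3 and 506, 551 and 684 reads in irradiated replicates 1, 2 and 3. In TPM these were 20.9 and 16.8 in control and 16.6, 19.9 and 21.7 in irradiated cells. The groups overlapped on both scales, and in TPM the levels of control replicate 2 and irradiated replicate 2 were close together. edgeR gave a log2 fold change of 0.35 (SE 0.20, 95% interval −0.11 to 0.80, adjusted p = 0.228 from edgeR), which the length offset took to 0.18 (adjusted p = 0.569 from edgeR).

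Splicing decides how the receptor ends inside the cell. The Sstr2-203 transcript reads through to the SSTR2A tail, and Sstr2-202 splices to the shorter SSTR2B tail. After 30 shared bases, capitals mark the rest of the coding sequence, from chr11:113625250-113625363 in Sstr2-203 and from chr11:113625589-113625633 in Sstr2-202.
Sstr2-203: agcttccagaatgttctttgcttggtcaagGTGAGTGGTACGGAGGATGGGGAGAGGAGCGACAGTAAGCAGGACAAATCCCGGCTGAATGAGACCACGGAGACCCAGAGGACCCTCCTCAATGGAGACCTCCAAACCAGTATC
Sstr2-202: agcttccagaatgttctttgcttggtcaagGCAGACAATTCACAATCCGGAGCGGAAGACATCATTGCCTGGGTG

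Sstr2-203 took nearly all of the reads, 93.1% and 96.0% in control and 98.8%, 97.0% and 97.1% in irradiated cells. A log2 fold change of 0.61 was estimated for it (SE 0.20, adjusted p = 0.18 from edgeR on transcripts), and DESeq2 on transcripts called it (0.61, adjusted p = 0.0316). The gene's values above were not called by either tool, and the scaling of the transcript fit differs from that of the gene fit, as St8sia1-201 shows, which held the same reads as its gene and had −0.32 in place of −0.54.

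Sstr1 (ENSMUSG00000035431.4, chr12:58211772-58214444, plus strand) was the scarcest of the 9 genes. It had 13 and 6 reads in control and 8, 19 and 22 reads in irradiated replicates 1, 2 and 3. Irradiated replicate 1 lay between the controls. The log2 fold change was 0.95 with an SE of 0.78 (95% interval −0.85 to 2.74, adjusted p = 0.395 from edgeR), and a difference was not detectable at this depth. The length offset gave 0.74.

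The rest of the somatostatin system was read from 17 genes, of which 12 were tested, 0 rose and 2 fell, with a median log2 fold change of 0.05. Of all genes tested, 12.7% were called higher and 13% lower. Sst, the gene of the ligand, had 0 reads in all 5 libraries, where the depth allows up to 0.0967 to 0.142 CPM at a floor of 3 reads, counting error only. Sstr3 and Sstr5 had at most 1 read in any library, and Sstr4 had 5 and 13 reads in control and 12, 7 and 17 reads in irradiated cells (0.52, adjusted p = 0.661 from edgeR, and 0.16 with the length offset). The genes that fell act after the receptor. Kcnj6, a potassium channel subunit opened by the receptor's G proteins, had 25.4 and 16.9 TPM in control and 7.99, 7.09 and 10.1 TPM in irradiated cells (−1.06, adjusted p = 0.0165 from edgeR), and was also called with the transcript length offset (−1.06, adjusted p = 0.0381 from edgeR). It was not called without control replicate 2 (−0.72, adjusted p = 0.126 from edgeR), irradiated replicate 1 (−1.02, adjusted p = 0.0521) or irradiated replicate 2 (−0.97, adjusted p = 0.0514). Ptpn11, which encodes the phosphatase SHP-2, had 174 and 134 TPM in control and 64.3, 58.6 and 82.4 TPM in irradiated cells (−0.54, adjusted p = 0.0362 from edgeR), and lost its call with that offset (−0.07, adjusted p = 0.749 from edgeR), without control replicate 2 (−0.38, adjusted p = 0.211) and without any 1 irradiated library (−0.58 to −0.51, adjusted p = 0.0642 to 0.126).

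Ceacam1 (ENSMUSG00000074272.10, chr7:25461707-25477603, minus strand) was near the limit of what these libraries could measure. It had 38 and 31 reads in control and 19, 15 and 25 reads in irradiated replicates 1, 2 and 3. Every irradiated library lay below both controls, at 1.10, 1.14 and 1.83 TPM against 3.14 and 2.41 TPM. This gave a log2 fold change of −0.66 (SE 0.56, 95% interval −1.95 to 0.62, adjusted p = 0.405 from edgeR), which the length offset took to −1.19 (95% interval −2.51 to 0.13, adjusted p = 0.2 from edgeR).

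Most of these reads did not mark a coding transcript. Ceacam1-206, which keeps 423 bases of an intron (chr7:25471375-25471797), took 38.3 and 18.1 reads in control and 12.3, 10.1 and 23.8 reads in irradiated cells. The coding Ceacam1-202 took 0 and 13 reads in control and 0, 5 and 1.07 reads in irradiated cells. Capitals mark the first 60 retained bases (chr7:25471738-25471797) after 30 bases of the exon, which Ceacam1-202 joins to its next exon.
Ceacam1-206: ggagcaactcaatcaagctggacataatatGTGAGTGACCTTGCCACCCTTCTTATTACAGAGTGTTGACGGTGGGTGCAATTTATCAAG
Ceacam1-202: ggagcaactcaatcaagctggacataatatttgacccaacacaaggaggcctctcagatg

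Ceacam2, the closest relative, matches Ceacam1-202 at 91.7% identity over 1040 bases, 70.4% of its length, so the division of reads between them is uncertain. It had 165 and 48 reads in control and 6, 4 and 27 reads in irradiated cells (log2 fold change −2.98, SE 0.80, adjusted p = 0.0301 from edgeR), and it was also called with the transcript length offset (−3.49, adjusted p = 0.0495 from edgeR). It was not called without control replicate 2 (−1.89, adjusted p = 0.234 from edgeR), irradiated replicate 1 (−2.66, adjusted p = 0.0823) or irradiated replicate 2 (−2.62, adjusted p = 0.0767). Both controls lay above every irradiated library, and control replicate 2 stood far above control replicate 3. Of 9 genes for the CEACAM family and the CEACAM1 partner TIM-3, 2 were tested and 2 had no read in any library. Of those tested 1 fell and 0 rose, with a median log2 fold change of −1.82, where 13% of all genes tested were called lower.

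B4galnt1 (ENSMUSG00000006731.10, chr10:127165225-127172330, plus strand) was well expressed and its levels mingled between the groups. It had 36.4 and 44.6 TPM in control replicates 2 and 3 and 46.2, 37.2 and 38.6 TPM in irradiated replicates 1, 2 and 3. In CPM the values were 34.0 and 45.6 in control and 61.5, 50.1 and 47.2 in irradiated cells. On the CPM scale every irradiated library lay above both controls, and on the TPM scale the groups overlapped. The log2 fold change was 0.41 (SE 0.19, 95% interval −0.03 to 0.85, adjusted p = 0.143 from edgeR), and the length offset gave 0.29 (adjusted p = 0.281 from edgeR). On the TPM scale, where the median of all genes lay at −0.30, limma gave 0.01 (adjusted p = 0.978).

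The coding transcript B4galnt1-201 took 71.1% and 80.0% of the gene's reads in control and 91.6%, 86.4% and 86.3% in irradiated cells. These shares did not overlap, and how often those of other transcripts do not overlap was not counted. For this transcript edgeR gave a log2 fold change of 0.84 (SE 0.28, adjusted p = 0.183 from edgeR on transcripts). B4galnt1-203, which retains an intron, took 24.5% and 7.24% in control and 3.68%, 9.02% and 6.77% in irradiated cells, so control replicate 2 stood apart. Slc26a10, on the opposite strand, shares 716 identical bases with B4galnt1-201, 29.9% of its length, and reads of the shared stretch can be counted for either gene.

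St8sia1 (ENSMUSG00000030283.7, chr6:142821545-142964452, minus strand) was scarce. It had 320 and 250 reads in control and 177, 127 and 230 reads in irradiated replicates 1, 2 and 3, all on the coding St8sia1-201. In TPM these were 2.34 and 2.02 in control and 1.22, 0.954 and 1.53 in irradiated cells. Every irradiated library lay below both controls. The log2 fold change was −0.54 (SE 0.26, 95% interval −1.13 to 0.05, adjusted p = 0.15 from edgeR). Its transcript of 8991 bases is the longest of the 9 genes, and the transcript length offset turned the estimate to 0.41 (95% interval −0.09 to 0.91, adjusted p = 0.243 from edgeR), so no direction can be given.

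Within each library B4galnt1 exceeded St8sia1 by a wide margin. The ratio of their TPM was 15.5 and 22.0 in control replicates 2 and 3 and 37.7, 39.0 and 25.2 in irradiated replicates 1, 2 and 3. The ratio was higher in every irradiated library, and it joins a transcript of 2194 bases with one of 8991 bases. How often such ratios do not overlap between the groups was not counted. With the transcript length offset the log2 fold changes were 0.29 for B4galnt1 and 0.41 for St8sia1, so no direction can be given for the ratio.

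Of 20 genes of ganglioside synthesis and related glycolipids, 17 were tested, 3 fell and 0 rose, with a median log2 fold change of 0.02. Among all genes tested 13% were called lower and 12.7% higher. The step before both enzymes is GM3 synthase, encoded by St3gal5, which had 48.8 and 45.0 TPM in control and 40.0, 33.5 and 41.6 TPM in irradiated cells (log2 fold change 0.03, SE 0.15, adjusted p = 0.916 from edgeR). B3galt4, which makes GM1 and GD1b after B4GALNT1, had 18 to 62 reads in a library (−0.67, SE 0.65, adjusted p = 0.472 from edgeR). Neither passed the test, and the transcript length offset gave −0.08 for St3gal5 and −1.09 for B3galt4.

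The genes that fell were St8sia3, St3gal1 and B4galt6. St8sia3, an alpha-2,8-sialyltransferase, had 43.2 and 28.6 TPM in control and 19.7, 19.2 and 21.7 TPM in irradiated cells (−0.76, adjusted p = 0.0182 from edgeR). St3gal1, an alpha-2,3-sialyltransferase, had 3.87 and 4.32 TPM in control and 2.13, 1.88 and 2.86 TPM in irradiated cells (−0.79, adjusted p = 0.0414 from edgeR). B4galt6, a lactosylceramide synthase, had 30.6 and 24.2 TPM in control and 15.5, 13.5 and 17.6 TPM in irradiated cells (−0.54, adjusted p = 0.0465 from edgeR). Their transcripts are 4424, 5368 and 5808 bases long, and with the transcript length offset all lost their calls, at −0.33 for St8sia3, −0.21 for St3gal1 and 0.12 for B4galt6. Leaving out control replicate 2 also ended them, at −0.57 for St8sia3, −0.82 for St3gal1 and −0.31 for B4galt6, as did leaving out irradiated replicate 1 or 2. Without irradiated replicate 3 the calls of St3gal1 (−0.84) and B4galt6 (−0.59) were lost, and without control replicate 3 that of St3gal1 (−0.71).

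Of 13 genes of ganglioside and glycolipid breakdown in the lysosome, 12 were tested, 1 rose and 0 fell, with a median log2 fold change of 0.17. The share called higher among all genes tested was 12.7%. Psap, which encodes the precursor of the saposins, had 173 and 294 TPM in control and 316, 303 and 308 TPM in irradiated cells (log2 fold change 0.69, SE 0.22, adjusted p = 0.0497 from edgeR). Its 3 irradiated values lay above both controls, and control replicate 2 stood well below control replicate 3. With the transcript length offset Psap had 0.71 (adjusted p = 0.0611 from edgeR). The call was also lost without control replicate 2 (0.40, adjusted p = 0.216 from edgeR) and without any 1 of the irradiated libraries (0.67 to 0.74, adjusted p = 0.0733 to 0.117 from edgeR).

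**Figure D4:**
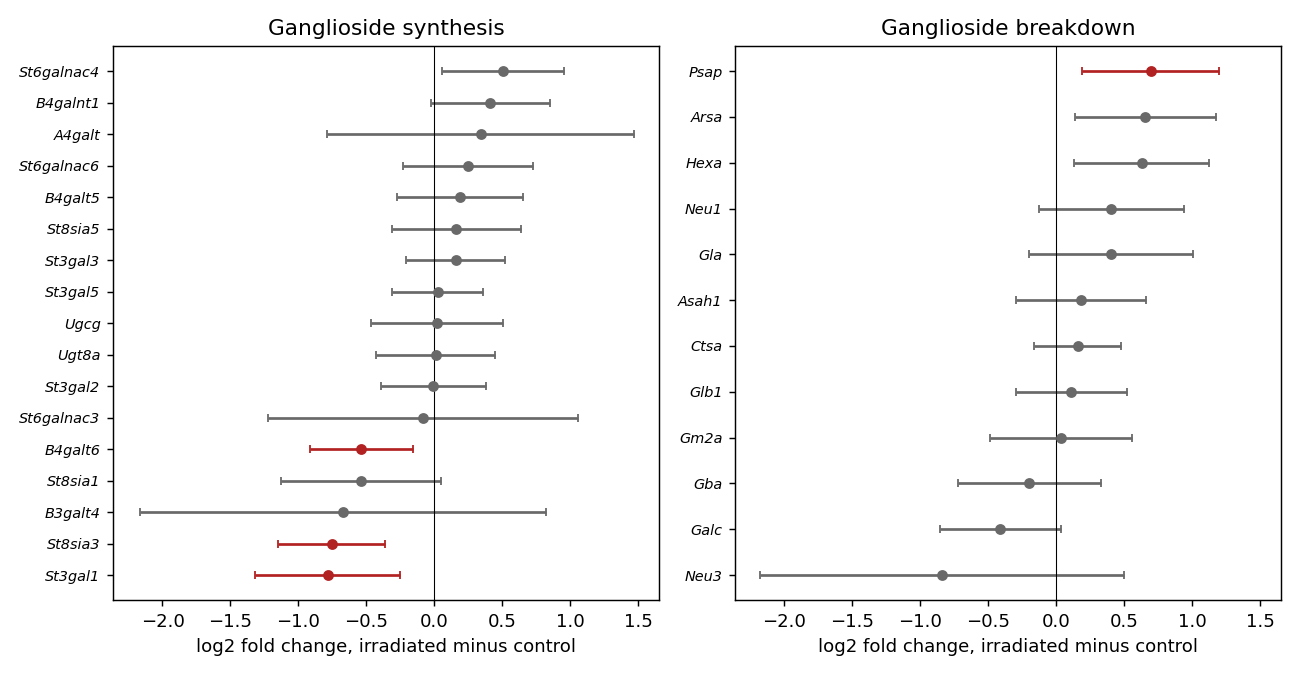
Log2 fold change, irradiated minus control, with 95% intervals from edgeR, for the tested genes of ganglioside synthesis (left) and breakdown (right), with genes past an adjusted p of 0.05 in red. St3gal1, St8sia3 and B4galt6 lie below 0 on the left and Psap above 0 on the right, and the intervals of B4galnt1 and St8sia1 include 0.

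Of 20 other surface antigens of SCLC and lung cancer, 15 were tested, 1 rose and 2 fell, with a median log2 fold change of −0.10. Over all genes tested the shares were 12.7% called higher and 13% lower. Dll3, a Notch ligand and the target of approved SCLC therapy, had 48.1 and 63.5 TPM in control and 49.5, 63.2 and 59.0 TPM in irradiated cells (log2 fold change 0.40, SE 0.18, adjusted p = 0.128 from edgeR, and 0.37 with the length offset). Its level was near that of Sez6 in control cells and above it in every irradiated library. Epcam, an epithelial adhesion molecule, rose from 10.0 and 16.8 TPM to 36.6, 24.3 and 21.9 TPM (1.34, SE 0.30, adjusted p = 0.018 from edgeR). Cdh2, which encodes N-cadherin, fell from 202 and 181 TPM to 86.6, 85.5 and 118 TPM (−0.72, adjusted p = 0.0217 from edgeR). Igf1r, a growth factor receptor with a transcript of 10887 bases, had −0.78 (adjusted p = 0.0247 from edgeR) and turned to 0.31 with the transcript length offset. That offset left the call of Epcam in place (1.17, adjusted p = 0.0442 from edgeR) and ended that of Cdh2 (−0.30, adjusted p = 0.167 from edgeR). None of the 3 was called without control replicate 2, at 1.05 for Epcam, −0.58 for Cdh2 and −0.56 for Igf1r, nor were Cdh2 without irradiated replicate 1 (−0.65) or 2 (−0.67) and Igf1r without irradiated replicate 2 (−0.66) or 3 (−0.75).

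**Figure D5:**
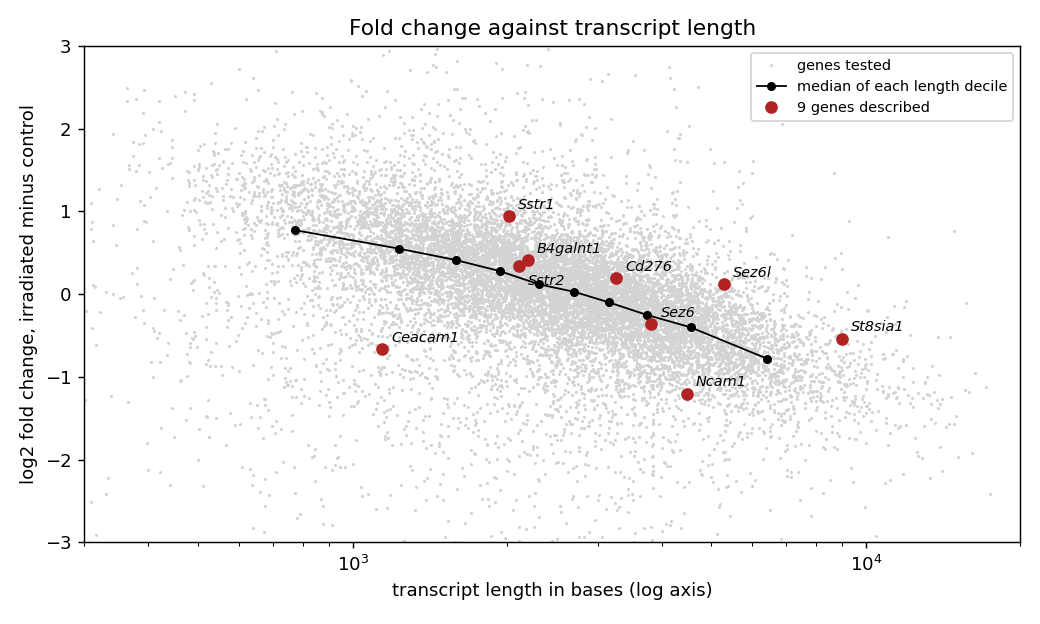
Log2 fold change, irradiated minus control, against transcript length in bases (log axis, with the ends of both ranges left out) for the genes tested (grey points), with the median of each decile of genes by length (black line) and the 9 genes (red). The medians go from 0.77 to −0.78. Ncam1 at −1.20 lies below the −0.40 of the decile of its TPM-weighted length, 4479 bases.

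Set against genes of like length, 6 of the 9 genes lay above the median of their decile and 3 below. Ncam1 (−1.20 beside a median of −0.40) and Ceacam1 (−0.66 beside 0.55) lay below it, and Sez6 (−0.36 beside −0.25) a little below. Sez6l (0.12 beside −0.78), Sstr1 (0.95 beside 0.28), Cd276 (0.19 beside −0.10), B4galnt1 (0.41 beside 0.12) and St8sia1 (−0.54 beside −0.78) lay above it, and Sstr2 (0.35 beside 0.28) a little above. The length of a gene was the mean over its transcripts weighted by TPM, which short fragments lower. It was 4479 bases for Ncam1 and 3821 for Sez6, whose main transcripts Ncam1-204 and Sez6-202 have 6050 and 4239 bases. The deciles that hold 6050 and 4239 bases had medians of −0.78 and −0.40, so the side of Sez6 rests on the length used. The transcript length offset used the same gene lengths. All of these comparisons are descriptions of the estimates, and the distance from the medians was not tested. Only the Ncam1 estimate passed the test against 0, in the fit without a term for length. With the transcript length offset its adjusted p was 0.0958 from edgeR.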

How the data were processed

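KP1 cells were profiled by bulk RNA sequencing in 2 control and 3 irradiated libraries, grouped by their labels. The authors quantified reads with Salmon against mm10 (the submitters' processing notes name Salmon 0.8.2 and DESeq2 1.22.2) and deposited, per transcript, estimated counts of reads, not scaled for depth. The authors also deposited TPM, scaled to a fixed total within a library, and, as other values, each transcript's length and effective length. The annotation release is not given in the sources used here.

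Of 113116 transcripts, 112762 (99.69%) matched GENCODE M21 on GRCm38 and were summed into 35056 genes. Estimated counts were rounded. edgeR 4.0.16 in R 4.3.3 tested irradiated against control after TMM and filterByExpr by quasi-likelihood, with Benjamini-Hochberg adjusted p-values over 14106 genes (40440 transcripts), called at an adjusted p under 0.05. A floor of 3 reads was used for genes without reads, and floors cover counting error only. With 2 against 3 libraries, an exact permutation test cannot give a one-sided p below 0.1. Transcript shares are Salmon's estimates, and their uncertainty is not in the values used.

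The members and lists were chosen with earlier results of these data known. A gene of the lists is not reported here and is left out of their counts. Named were the 9 members, and from each list up to 4 further genes per direction past the threshold by smallest p. A fixed set of relatives and pathway genes and the 3 genes most like the most abundant member were also named. So were transcripts with at least 10% of a gene's TPM in a library or with a sequence shown. Alternatives were DESeq2 1.42.0, other normalizations and filters, offsets for effective length and for transcript length (a spline with 5 degrees of freedom), limma 3.58.1 on log2(TPM + 0.1) and log2(TPM + 1), a replicate block, and each replicate left out. A crossed replicate block, a fit without transcripts under 200 bases and a fit on protein-coding transcripts alone were chosen after seeing the data. Fits were tested on simulated data. Shared sequence was found with blastn 2.17.0, and Python 3.11.15 with pandas 2.3.3 prepared the tables.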

Additional observations from a re-analysis of the deposited data

How the results depend on the processing

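The fits started from 0 members called higher, 1 lower and 0 past the fold limit, 1786 genes higher, 1827 lower and 498 past the fold limit, and 2 list genes higher and 10 lower. With the transcript length offset, 0 members were lower, 592 genes higher, 497 lower and 156 past the fold limit, and 1 list gene higher and 2 lower. The groups share the numbers 2 and 3, but same-numbered libraries did not move together (correlation −0.196 across genes). With the replicate block, 0 members were lower, Ncam1 had −1.28 (adjusted p = 0.0518 from edgeR), 602 genes were higher, 494 lower and 301 past the fold limit, and 1 list gene was higher and 0 lower. With the replicate block and the length offset, 0 members were lower, 0 genes higher, 2 lower and 2 past the fold limit, and 0 list genes were higher and 0 lower. The crossed replicate block called 1 member higher and 2 lower, 3026 genes higher, and 12 list genes higher and 20 lower.

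limma on log2(TPM + 0.1) called 2 members lower and 1 past the fold limit, 721 genes higher and 766 past the fold limit, and 0 list genes higher. limma on log2(TPM + 1) called 2 members lower and 1 past the fold limit, 693 genes higher and 0 list genes higher. On these scales the median of all genes was −0.30 and −0.24, and 21.4% and 20.6% of the calls were higher, against 49.4% in the main fit. The effective length offset put 1 member past the fold limit and called 1 list gene higher. RLE size factors called 1 list gene higher, and so did library size alone (1). DESeq2 called 4 list genes higher and, on transcripts, 1 member transcript higher and 1 lower. Without a filter on low counts 4 list genes were higher.

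Leaving out 1 replicate gave 0 to 1 members lower, 0 to 1 past the fold limit, 95 to 2232 genes higher, 175 to 1977 lower and 56 to 1271 past the fold limit, and 0 to 3 list genes higher and 0 to 12 lower. A control left alone was assumed to vary like the irradiated group. Directions turned for Sez6l with the effective length offset (−0.23), limma on log2(TPM + 0.1) (−0.68) and log2(TPM + 1) (−0.47) and without irradiated replicate 3 (−0.20, the lowest of −0.20 to 0.47 over the fits that left out 1 replicate), for Cd276 with both limma fits (−0.19 and −0.19), and with the length offset and with the block and length offset for St8sia1 (0.41 and 0.40), B4galt6 (0.12 and 0.10), Igf1r (0.31 and 0.18), St8sia4 (0.01 and 0.31) and St3gal5 (−0.08 and −0.12, also −0.01 with the replicate block), and with the length offset alone for Ncam2 (0.02) and St8sia2 (0.02). The cause was not tested. Over 21 alternatives Ncam1 kept its direction, at −1.79 to −0.67, and was called in 15.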
